A study of Mus musculus with 7 samples.

Results

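Clusters 1 and 3 of the sorted host cells are labelled here as host Langerhans cells (eLCs), and were taken by number from the authors' deposited clustering. Together they held 437 of the 781 host cells and of the 18106 cells with a deposited profile in the series. Cluster 1 had 276 cells, 35.3% of the host cells (95% exact binomial interval 32.0% to 38.8%), and cluster 3 had 161 cells, 20.6% (17.8% to 23.6%). Clusters 2 and 4, with 170 and 90 cells, are the host populations most like them and serve as the comparison. The study describes 3 eLC clusters, defining 1 and 2 as resident and likening the third to migrating cells. How those numbers map to the deposited ones is not given in the sources used here.

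The series followed Langerhans cells in mouse epidermis after bone marrow transplantation (BMT) by droplet sequencing of RNA with unique molecular identifiers (UMIs). The host cells came from male CD45.2 C57BL/6 mice that had been lethally irradiated and had received marrow of female CD45.1 C57BL/6 donors. CD11b+MHCII+ cells of host origin were sorted from the epidermis 3 weeks after BMT and entered 1 library made with the 10x 5' kit. The 4 donor libraries hold the CD45.1 CD11b+MHCII+ cells of such mice, by their labels 3 after BMT alone and 1 after BMT with T cells. The study's text places its sorted donor cells after BMT with Matahari T cells, which differs from the 3 labels without T cells. The label of the host library names BMT without T cells, while the study's account of this graft-versus-host model includes transfer of CD4 T cells and of CD8 Matahari T cells, so the labels and that account differ on this point. Whether the library pooled several animals is not stated in the labels.

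Langerhans cells are the dendritic-like macrophages of the epidermis. They are seeded before birth, renew themselves in place, anchor to keratinocytes through E-cadherin and EpCAM, and take up antigen with the lectin langerin (Cd207). On activation they load peptide on MHC class II, switch on the chemokine receptor CCR7 and leave for the lymph node. In the study's model, transferred T cells destroy the resident cells, and donor monocytes can then give rise to replacements.

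With 1 host library there is no replicate, so no test of any difference was made. Levels are UMIs of a gene per 10000 non-mitochondrial UMIs, summed over the cells of a cluster, and each interval is a 95% exact Poisson interval that covers counting error only. The clusters were made from these same values, so differences between them describe the annotation. "At least 2-fold" is a difference of 1 or more on the log2(level + 0.1) scale in a gene with at least 50 UMIs in the compared groups together. The file behind the values lists 23737 genes.

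Mitochondrial shares were high in both clusters. The median share of mitochondrial UMIs per cell was 15.6% in cluster 1 (quartiles 11.3% and 21.2%) and 16.9% in cluster 3 (12.7% and 22.2%), beside 6.09% in cluster 2 (1.38% and 19.0%) and 12.9% in cluster 4 (8.14% and 19.7%). The highest share in cluster 3 was 29.997%. Cluster 2 held 76 cells (44.7%) with fewer than 500 genes, many with shares near 0, against 37 in cluster 1 (13.4%) and 7 in cluster 3 (4.35%). Without such cells the share of cluster 2 was nearer to clusters 1 and 3, as given in the section on processing. Shares above 20% were found in 82 cells of cluster 1 (29.7%) and 52 cells of cluster 3 (32.3%). The filter given in the study's methods removes cells with more than 20% mitochondrial UMIs or fewer than 500 genes. Applied to the deposited host cells it would leave 165 cells of cluster 1, 102 of cluster 3, 58 of cluster 2 and 57 of cluster 4, so the host table holds cells outside it.

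Depth was alike in clusters 1 and 3 and set them apart from cluster 2. The median was 3919.5 UMIs and 2009.5 genes per cell in cluster 1, 4648 UMIs and 2260 genes in cluster 3, 1763.5 UMIs and 721.5 genes in cluster 2, and 5007.5 UMIs and 2095 genes in cluster 4. Thinned to 1000 UMIs, the median cell of cluster 1 showed 675 genes, that of cluster 3 662.5, that of cluster 2 593 and that of cluster 4 626, with 33, 7, 77 and 11 shallower cells left out. The pooled totals were 1134742 UMIs in cluster 1, 790084 in cluster 3, 788721 in cluster 2 and 597525 in cluster 4. Of the 781 host barcodes, 7 also occur in another library, 6 of them in clusters 1 and 3.

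**Figure D1:**
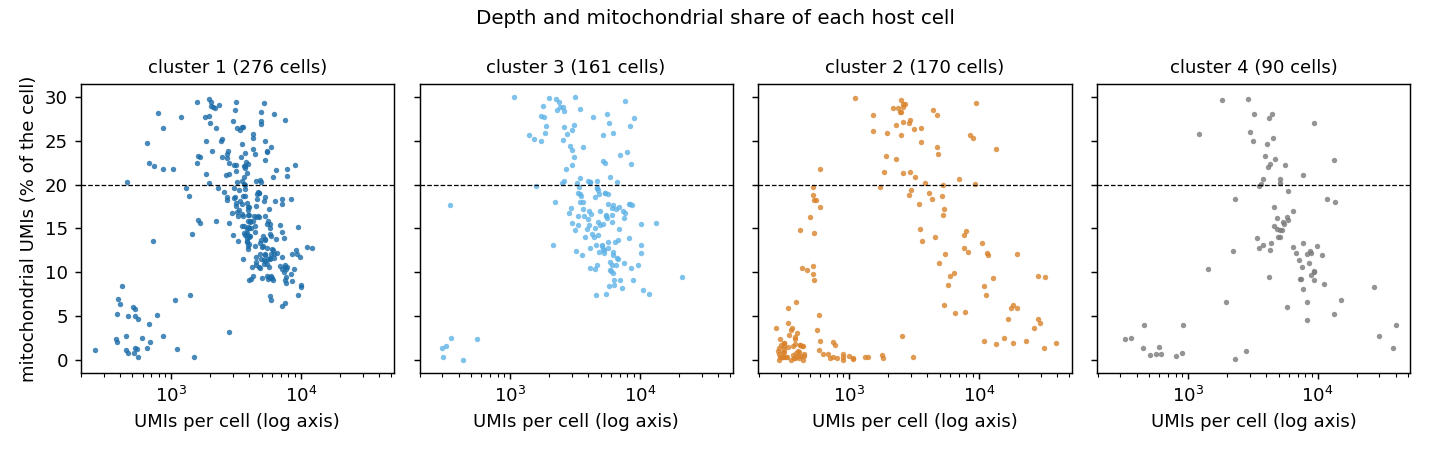
Each point is 1 host cell, with its UMIs on a log axis against the percentage of them that are mitochondrial, one panel for each cluster, and the dashed line at 20%. Most cells of clusters 1 and 3 lie above 2000 UMIs, at median shares of 15.6% and 16.9%, while cluster 2 also holds many cells under 1000 UMIs with shares near 0.

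The 4 genes of the label did not behave alike. Ciita (GRCm38.p6 chromosome 16, 10480014 to 10531064), the coactivator that drives MHC class II transcription, was at 11.3 (10.64 to 11.99) in cluster 1, 12.1 (11.2 to 12.9) in cluster 3, 6.18 in cluster 2 and 7.07 in cluster 4. Ahr (chromosome 12, 35497979 to 35534989), the ligand-activated aryl hydrocarbon receptor, was at 4.60 (4.18 to 5.05), 4.06 (3.59 to 4.58), 2.05 and 1.25 in clusters 1, 3, 2 and 4. Both were thus highest in clusters 1 and 3, whose intervals overlapped each other.

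Cacna1e (chromosome 1, 154390806 to 154884785), a subunit of a voltage-gated calcium channel, was the gene of the 4 with the highest level in clusters 1 and 3. It stood at 29.1 (28.0 to 30.2) in cluster 1, 23.6 (22.5 to 24.8) in cluster 3, 6.87 in cluster 2 and 3.02 in cluster 4. Clusters 1 and 3 together were 3.90-fold above cluster 2 (3.55 to 4.30) and 8.88-fold above cluster 4 (7.58 to 10.5). A Cacna1e UMI was seen in 88.8% of the cells of cluster 1 and 93.8% of those of cluster 3, against 40.6% in cluster 2 and 35.6% in cluster 4.

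Mfge8 (chromosome 7, 79133768 to 79149060), a secreted bridge to phagocytes, ran the other way. It was at 8.57 (7.99 to 9.18) in cluster 1 and 10.9 (10.1 to 11.7) in cluster 3, against 48.3 in cluster 2 and 34.3 in cluster 4, so it was 5.07-fold lower in clusters 1 and 3 than in cluster 2 (4.77 to 5.38).

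The check of the label used a list of 13 Langerhans cell type markers, the 4 label genes included. Their summed level was 124 in cluster 1 and 123 in cluster 3, beside 143 in cluster 2, 68.4 in cluster 4 and 6.59 to 11.9 in clusters 5 to 7. Because the label genes are in the list, this sum is not an independent check of the label. Cacna1e alone gave 26.8 in clusters 1 and 3 together and 6.87 in cluster 2, so nearness to the sum of cluster 2 rests partly on it. Detection alone separated nothing, since at least 1 UMI of all 13 was also found in clusters 5 and 7. Langerin (Cd207) itself was low. Its level was 2.04 (1.76 to 2.35) in cluster 1, 3.29 (2.87 to 3.76) in cluster 3, 22.5 in cluster 2 and 5.32 in cluster 4. A Cd207 UMI occurred in 33.3% of cluster 1 cells and 58.4% of cluster 3 cells, and at 1000 UMIs in 13.2% and 26.0%, against 60.2% in cluster 2. Among the keratinocyte-like cells of cluster 5, which should lack Cd207 and have a median depth of 35812 UMIs, the unthinned share was 9.30%. Epcam, an adhesion molecule of Langerhans cells and keratinocytes, had the same order, at 1.13, 2.03 and 12.1 in clusters 1, 3 and 2, with 1.41 in cluster 4.

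The listed enzymes of prostaglandin and leukotriene synthesis, Hpgds, Ptgs1 and Ltc4s, did not have this order. Hpgds, a prostaglandin D synthase, was at 31.1 in cluster 1, 30.02 in cluster 3, 15.7 in cluster 2 and 7.51 in cluster 4. Ptgs1, cyclooxygenase 1, was at 10.5, 10.3, 5.33 and 0.684 in the same order, and Ltc4s, leukotriene C4 synthase, at 8.49, 9.39, 7.41 and 2.34. These levels hardly separated cluster 1 from cluster 3 and were lowest in cluster 4. Outside the list, the leukotriene synthesis genes Alox5ap and Alox5 were lower in clusters 1 and 3 together than in cluster 2. Alox5ap was at 0.6745 against 6.12 and Alox5 at 3.14 against 4.55. The transcription factor Runx3, needed for Langerhans cells to form, was at 21.7 and 21.2 in clusters 1 and 3, at 9.63 in cluster 2 and at 2.55 in cluster 4. E-cadherin (Cdh1) was at 2.41, 2.70, 3.66 and 0.342, and Csf1r, the receptor for colony-stimulating factor 1 and interleukin 34, at 3.40, 2.99, 2.96 and 0.475.

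**Figure D2:**
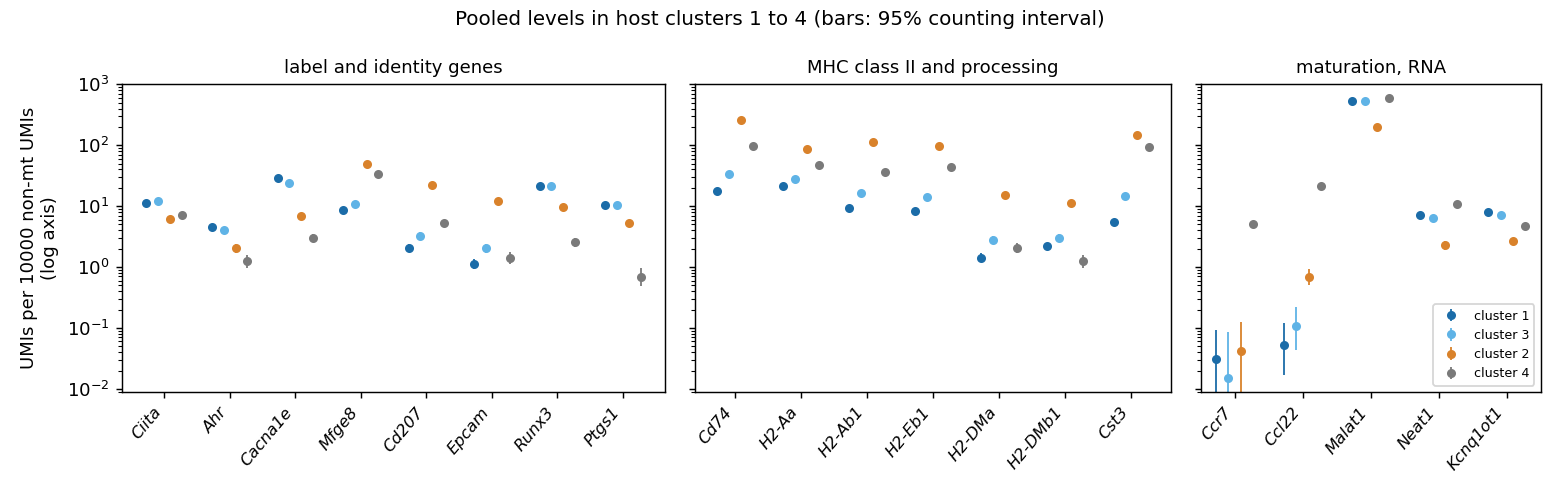
Points give the pooled level of each gene in clusters 1, 3, 2 and 4 as UMIs per 10000 non-mitochondrial UMIs on a log axis, and bars give the 95% counting interval. Ciita and Cacna1e sit highest in clusters 1 and 3, while the MHC class II genes, Cst3 and Cd207 sit highest in cluster 2 and the migration genes Ccr7 and Ccl22 in cluster 4.

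Markers of other cells were summed in the same way. The 12 keratinocyte markers summed to 3.47 in cluster 1 and 3.84 in cluster 3, against 12.8 in cluster 2, 4.49 in cluster 4 and 527 in cluster 5. The 10 T cell and NK markers summed to 0.429 and 0.501, with Gzmb at 0 in both and Trac at 0 in cluster 1, against 7.79 in cluster 2 and 198 in cluster 6. The 8 listed monocyte and macrophage markers summed to 0.679 and 0.971, with Ly6c2 at 0, against 3.96 in cluster 2, and the 5 markers of migrating Langerhans cells to 1.05 and 0.971, against 55.2 in cluster 4. Dermal dendritic cell markers summed to 2.12 and 1.91, above cluster 2 (1.07) and cluster 4 (1.54), and melanocyte markers to 0.732 and 0.895, beside 0.368 in cluster 2 and 0.989 in cluster 4. The part of such cells in the values was not tested. Fibroblast collagens summed to 0.157 and 0.182, beside 0.0849 and 0.114 in clusters 2 and 4, and S100a8 of neutrophils had 0 UMIs in cluster 1 and 2 in cluster 3. S100a9, Clec9a, Plac8, Chil3, Mrc1 and both mast cell markers were not used here.

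Ciita is the coactivator that acts on MHC class II genes through factors bound to conserved elements just upstream of their start, among them a Y box read as ATTGG and an X box. Stretches of 100 bases, from 120 to 21 bases before the annotated start, are shown for a classical alpha chain, a classical beta chain and a peptide-loading chain, since these genes and Ciita ran in opposite directions. Capitals mark ATTGG, or its reverse complement CCAAT, and TAGNAAC, a run of letters within the X box region of the last 2, with both strands searched. The sequences are those of RefSeq for GRCm38.p6, written along the gene's own strand, at chr17:34287844-34287943 (minus strand), chr17:34305747-34305846 (plus strand) and chr17:34153071-34153170 (plus strand).
H2-Aa: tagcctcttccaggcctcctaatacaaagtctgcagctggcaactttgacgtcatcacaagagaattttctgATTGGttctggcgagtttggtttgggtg
H2-Eb1: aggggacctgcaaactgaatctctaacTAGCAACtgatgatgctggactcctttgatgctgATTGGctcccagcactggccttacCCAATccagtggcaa
H2-DMb1: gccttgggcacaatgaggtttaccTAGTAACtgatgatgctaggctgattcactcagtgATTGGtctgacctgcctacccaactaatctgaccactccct
ATTGG begins 48, 59 and 61 bases before the start of H2-Aa, H2-Eb1 and H2-DMb1. In windows of 300 bases (250 before and 50 after the start), ATTGG or its reverse complement is common, at 37.4% of the 32851 RefSeq windows, and TAGNAAC is at 11.4%. Among the windows of the listed MHC class II genes, 7 of 8 hold the first and 3 of 8 the second.

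The RNA of these genes did not follow Ciita across the clusters. H2-Aa, the MHC class II alpha chain, was at 21.6 in cluster 1, 27.8 in cluster 3, 86.4 in cluster 2 and 47.5 in cluster 4. H2-Ab1 and H2-Eb1, the beta chains, were at 9.25 and 8.37 in cluster 1, at 16.4 and 14.1 in cluster 3, at 112 and 97.2 in cluster 2 and at 37.0 and 43.4 in cluster 4. Cd74, the invariant chain that escorts class II molecules, was at 17.9 (17.1 to 18.8) in cluster 1, 34.0 (32.6 to 35.4) in cluster 3, 260 in cluster 2 and 97.4 in cluster 4. In every one of these genes cluster 1 was lowest, cluster 3 next and cluster 2 highest, while Ciita was highest in clusters 1 and 3. The gap in Ciita to cluster 2 was smaller among cells with over 10% mitochondrial UMIs, as given below.

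The peptide-loading genes had the same order except in cluster 4. H2-DMa was at 1.42, 2.81, 15.03 and 2.05 and H2-DMb1 at 2.19, 3.05, 11.3 and 1.24 in clusters 1, 3, 2 and 4. H2-Ob, which modulates loading, was flat at 0.342 to 0.355. Summed over the 10 listed genes, the class II level was 73.4 in cluster 1, 112 in cluster 3, 593 in cluster 2 and 238 in cluster 4.

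Cluster 1 and cluster 3 were close over most genes. Of 6481 genes with enough UMIs, 12 (0.185%) were at least 2-fold higher in cluster 1 and 101 (1.56%) at least 2-fold lower, with a median log2 difference of 0.03 over all of them. The lower set was made largely of ribosomal protein genes, which numbered 52 of the 101. Of 74 ribosomal protein genes tested, 52 were at least 2-fold lower in cluster 1 and 0 higher, with a median log2 difference of -1.19. The minimum was on both clusters together: 16 of the 74 had fewer than 50 UMIs in cluster 1 and 8 in cluster 3, and of the 58 with at least 50 in cluster 1, 43 were lower. Over all 86 listed they took 0.617% of the non-mitochondrial UMIs in cluster 1 and 1.57% in cluster 3, beside 9.59% in cluster 2 and 3.96% in cluster 4.

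Rplp0, a ribosomal stalk protein gene, stood at 1.16 in cluster 1, 4.55 in cluster 3, 26.2 in cluster 2 and 11.7 in cluster 4, and Rps29 at 1.71, 5.69, 39.6 and 18.6. Rplp1 differed most among them, at 1.07 in cluster 1 and 4.23 in cluster 3. A UMI of Rplp0 was found in 30.4% of cluster 1 cells and 74.5% of cluster 3 cells, so the difference was spread over many cells. Near-identical pseudogenes of ribosomal protein genes can take some of their reads, so single members are less certain than the sum.

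Other small, abundant transcripts followed. Tmsb4x, an actin-binding peptide, was at 2.93 in cluster 1 and 10.2 in cluster 3, and Cd52, a surface glycoprotein of leukocytes, at 0.826 and 3.29. Cst3, an inhibitor of cysteine cathepsins, was at 5.51 and 14.8 and was the 1 antigen-processing gene of 7 past 2-fold. The 85 nuclear-encoded respiratory chain genes summed to 20.5 and 32.6, and 6 were at least 2-fold lower in cluster 1, among them Cox6b1 at 0.199 and 0.713, but none of the 10 with at least 50 UMIs in cluster 1 was. Tubb5, a beta-tubulin, was at 0.899 and 1.97 and was the 1 of 5 cell cycle genes that did so. The remaining 41 genes of the lower set belonged to none of the lists. Of the 101, 95 were also at least 2-fold lower in clusters 1 and 3 together than in cluster 2 and 93 than in cluster 4; these comparisons share the cells of cluster 1.

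Some leading genes rested on single cells. Xaf1, an interferon-inducible partner of the apoptosis inhibitor XIAP, had the widest gap, at 0.815 in cluster 1 and 4.16 in cluster 3. However, 204 of its 274 UMIs in cluster 3 (74.5%) came from 1 cell, and a UMI was seen in 19.6% of cells in cluster 1 and 21.1% in cluster 3. Likewise Olfr1124, an olfactory receptor gene and the first of those higher in cluster 1 (86 UMIs against 18), had 41 of its 86 UMIs in 1 cell. The other genes named by rank as higher in cluster 1 had few UMIs, from 45 to 94 in cluster 1 and 10 to 27 in cluster 3: Cspg5, Cdc42bpa, Epm2aip1, Cinp, Exosc10, Arl8b, Tm7sf2, Tmem87b and Wdr11.

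No member of the MHC class II list (9 tested, median -0.46), the Langerhans identity list of 16 genes (median -0.13), the transcription factors (9 tested, median -0.01) or the immediate early genes (11 tested, median -0.35) was past 2-fold between clusters 1 and 3. In the class II list H2-DMa (-0.93 on the log2 scale) and Cd74 came nearest, the latter 1.90-fold lower in cluster 1 (1.78 to 2.02), followed by H2-Ab1 at -0.82 and H2-Eb1 at -0.74. Cd207 was 1.61-fold lower in cluster 1 (1.32 to 1.97). Averaged over cells instead of pooled, Cd74 passed 2-fold (-1.10), and in cells with at most 10% mitochondrial UMIs Mfge8 (-1.03) and Epcam (-1.40) did. The same held for 23 mitochondrially encoded genes, whose levels were taken per 10000 of all UMIs in each comparison (median -0.11), and 5 nuclear-retained and rRNA-like RNAs (median 0.17). These 5 are Malat1, Neat1, Kcnq1ot1, Gm42418 and Mir142hg, a mixed list and not nuclear-retained RNAs alone. The nuclear-retained Malat1 was at 538 and 528.

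**Figure D3:**
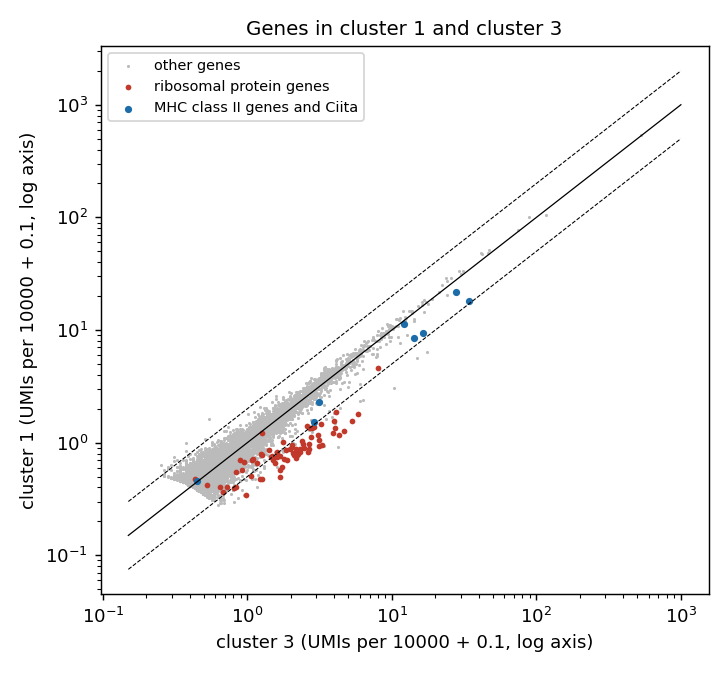
Each point is a gene with at least 50 UMIs in clusters 1 and 3 together, with its level plus 0.1 in cluster 3 (x, log axis) and in cluster 1 (y, log axis), the solid line marking equality and the dashed lines 2-fold. Of the 74 ribosomal protein genes (red) 52 lie past the lower line, while the MHC class II genes and Ciita (blue) all lie within 2-fold.

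Against cluster 2, clusters 1 and 3 differed over much of the transcriptome. Of 8262 genes, 2104 (25.5%) were at least 2-fold higher and 1082 (13.1%) at least 2-fold lower in clusters 1 and 3, and the median log2 difference was 0.57. This shift depends on scaling: set to the median gene, 254 genes were higher and 1641 lower, so the share of higher calls moved from 66.0% to 13.4%. Differences are therefore best read against 0.57. On the median-gene scaling Ciita was at 0.21 and Ahr at 0.38 above cluster 2, and Cacna1e at 1.25, while Cd74 was at -4.10 and Cd207 at -3.76. Mfge8 moved from -2.33 to -3.02 on that scaling and to -1.53 when averaged over cells.

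The lists of translation, antigen presentation and respiration had lower levels in clusters 1 and 3 than in cluster 2. Because a gene could pass the minimum of UMIs through cluster 2 alone, the counts here are over members with at least 50 UMIs within clusters 1 and 3, and the summed levels are over all listed members. The 86 ribosomal protein genes summed to 101 against 959, and 70 of 74 were at least 2-fold lower. Rpl5 was the 1 member with a higher level in clusters 1 and 3 (1.12 and 1.17 against 0.566). The 85 nuclear-encoded respiratory chain genes summed to 25.4 against 159, with 28 of 31 lower. MHC class II summed to 89.0 against 593, with 7 of 9 lower, and antigen processing to 12.6 against 167, with 5 of 7 lower. Cst3 was at 146 in cluster 2, Ctss, the cathepsin that trims the invariant chain, at 0.460 and 1.02 in clusters 1 and 3 against 7.40, and Ifi30, a thiol reductase of lysosomes, at 0.366 and 0.789 against 6.79.

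Among the genes furthest down were also B2m, the light chain of MHC class I, at 0.523 and 1.21 against 10.96, S100a6, a calcium-binding protein, at 1.39 and 3.93 against 35.5, and Tmsb10, which binds actin, at 0.220 and 0.364 against 4.72. Tomm7, of the mitochondrial import pore, was at 0.0627 and 0.303 against 3.51. Ccl5 and Trbc2, a chemokine and a T cell receptor chain, had 4 and 2 UMIs in clusters 1 and 3 and 229 and 111 in cluster 2. Tomm7 and Tmsb10 had 26 and 45 UMIs in clusters 1 and 3. Ccl5, Trbc2, Tomm7 and Tmsb10 thus passed the minimum only through cluster 2. Cluster 2 also had the higher sum of T cell and NK markers given above, and the part of such RNA in these differences was not tested.

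The list of nuclear-retained and rRNA-like RNAs went the opposite way, with 5 of 5 at least 2-fold higher in clusters 1 and 3 (median 1.41). Set to the median gene, however, none of the 5 was past 2-fold, with Malat1 at 0.71, Neat1 at 0.87 and Gm42418 lowest at 0.42. Malat1 was at 201 in cluster 2, Neat1 at 7.24 and 6.32 against 2.28, and Kcnq1ot1 at 8.01 and 7.13 against 2.63. The mitochondrially encoded genes, none of 23 past 2-fold, had a median of 0.44. Among the genes most above cluster 2 were Anapc1, a subunit of the anaphase-promoting complex (1.30 against 0.240), Bicd1, a dynein adaptor (1.54 against 0.311), Phc3, of a Polycomb complex (1.86 against 0.396), Fgd4, a Cdc42 exchange factor (2.20 against 0.495) and Slc38a6, an amino acid transporter family member (2.20 against 0.495). Spaca6 had 110 UMIs against 7 and Olfr975 71 against 2. Anapc1, Bicd1, Phc3, Fgd4 and Slc38a6 had 17, 22, 28, 35 and 35 UMIs in cluster 2. All of these genes thus passed the minimum only through clusters 1 and 3.

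Of the 16 Langerhans identity markers 1 was higher (Cacna1e) and 5 were lower, namely Cd207, Epcam, Mfge8, Cd24a and Rgs18. Their median was 0.05, below the median of all genes. Of 10 transcription factors Runx3 (1.15) and Ahr (1.06) were higher and Spi1 (-1.97), the macrophage and dendritic cell regulator PU.1, and Nr4a3 (-1.07) lower on the log2 scale. Among all genes 25.5% were higher and 13.1% lower, so the higher calls among these factors were no more frequent than over all genes. Set to the median gene, Ahr was at 0.38 and not past 2-fold. The same scaling took Malat1 from 1.41 to 0.71, so Runx3, at only 1.15 before it, was not past 2-fold either.

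Against cluster 4, clusters 1 and 3 had lower levels of several genes of migration. Of 7887 genes, 1276 (16.2%) were at least 2-fold higher and 827 (10.5%) lower, with a median of 0.37; set to the median gene, the counts were 610 and 1179 and the share of higher calls moved from 60.7% to 34.1%. The 15 migration and maturation genes summed to 9.30 in clusters 1 and 3, 10.7 in cluster 2 and 86.0 in cluster 4. Of the 13 that passed the minimum, 7 did so only through cluster 4, and of the 6 with at least 50 UMIs in clusters 1 and 3, 5 were lower. Ccr7 was at 0.0314 and 0.0152 in clusters 1 and 3 against 5.001, Ccl22, a chemokine that draws CCR4+ T cells, at 0.0523 and 0.106 against 21.8, and Fscn1, the actin bundler of mature dendritic cells, at 0.0732 and 0.106 against 11.6. Ccr7 had 4 UMIs in all 437 cells.

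The same comparison set the transcription factors apart. Runx3 (3.03) and Ahr (1.73) were higher in clusters 1 and 3 on the log2 scale, while 6 of the 9 factors with at least 50 UMIs in clusters 1 and 3 were lower, among them Nr4a3 at 0.721 and 0.546 against 11.6 and Irf8, a dendritic cell factor, at 1.07 and 1.08 against 9.01. Of the 16 identity markers 11 were higher and 3 lower (Mfge8, Cd207 and Ly75), although 8 of the 16 had fewer than 50 UMIs in cluster 4. Their sums were 118 and 72.4. Those furthest above cluster 4 included Ptgs1, Tm6sf1 (7.54 and 6.52 against 0.285), Zfp36l2, an RNA-binding regulator of transcript decay (10.1 and 10.1 against 0.703), the septin Sept3 (6.48 and 6.79 against 0.399), the kinase Dmpk, Hdgfl3, the amino acid transporter Slc36a2 and the dipeptidase Dpep2. Each had from 7 to 37 UMIs in cluster 4 and so passed the minimum only through clusters 1 and 3.

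Those furthest below cluster 4, beside the migration genes, were Crip1 (0.282 and 0.698 against 59.6), the calcium channel subunit Cacnb3, Basp1, Mreg and Apol7c. Cacnb3, Basp1, Mreg and Apol7c had 9, 45, 19 and 13 UMIs in clusters 1 and 3 and 306, 737, 357 and 292 in cluster 4. They thus passed the minimum only through cluster 4. Among members with at least 50 UMIs in clusters 1 and 3, 68 of 74 ribosomal protein genes were lower, as were 22 of 31 respiratory chain genes, 5 of 7 antigen-processing genes and 3 of 9 MHC class II genes. The sums over all listed members were 101 against 396 for the ribosomal list, 25.4 against 80.3 for the respiratory list, 12.6 against 111 for antigen processing and 89.0 against 238 for MHC class II. The nuclear-retained and rRNA-like RNAs did not separate these clusters, with 0 of 5 past 2-fold and a median of -0.03. Mitochondrially encoded genes had a median of 0.27, with 0 of 23 past 2-fold.

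The differences ran with the length of the gene on the genome. Spans were taken from RefSeq GRCm38.p6 and were found for 88.4% of the genes tested against cluster 2. In genes under 5 kb (807 genes) the median log2 difference of clusters 1 and 3 from cluster 2 was -0.66, and in those over 100 kb (949 genes) it was 0.82. Of the former 42.6% were at least 2-fold lower in clusters 1 and 3, of the latter 0.843%. Across genes, which share libraries and base composition and are not replicates, Spearman's rho between span and difference was 0.39 against cluster 2, 0.25 against cluster 4 and 0.17 between clusters 1 and 3. In cells passing the study's filter it was 0.40, 0.26 and 0.18. Cacna1e, with a span of 493980 bases, is among the longest genes, and its level and that of the short ribosomal protein genes ran to opposite ends of this order. The part of gene length in the level of any one gene was not tested.

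The resident monocyte-derived Langerhans cells (resident mLC) of the 4 donor libraries, 1651 cells, gave the same order. The tables were normalised separately, and whether reads from introns were counted alike in both is not given in the sources used here. The levels here are per 10000 UMIs of the 13553 genes both list, with no test, and library and cell origin cannot be told apart. In genes over 100 kb the median log2 difference from these cells was 1.40 for cluster 1, 1.30 for cluster 3, 0.42 for cluster 2 and 0.72 for cluster 4, and in genes under 5 kb it was -1.003, -0.88, -0.27 and -0.70.

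Whether a difference in counting enters the gaps that follow was not tested. Beside the donor cells, Ciita was at 15.7 and 16.6 in clusters 1 and 3 and 0.0907 to 0.163 in the 4 donor libraries, and Cacna1e at 40.4 and 32.4 against 0.436 to 0.787. Cd74 was at 24.9 and 46.6 against 293 to 556, H2-Aa at 30.01 and 38.2 against 147 to 183, and Epcam at 1.57 and 2.79 against 21.6 to 35.3. Cluster 2 lay nearer to the donor range in Cd74 (312) and Epcam (14.5), with Ciita at 7.43. Cd207, at 2.84 and 4.52, lay above the 1.37 of the donor library with 105 resident cells and below the 5.85, 11.4 and 10.1 of the others.

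**Figure D4:**
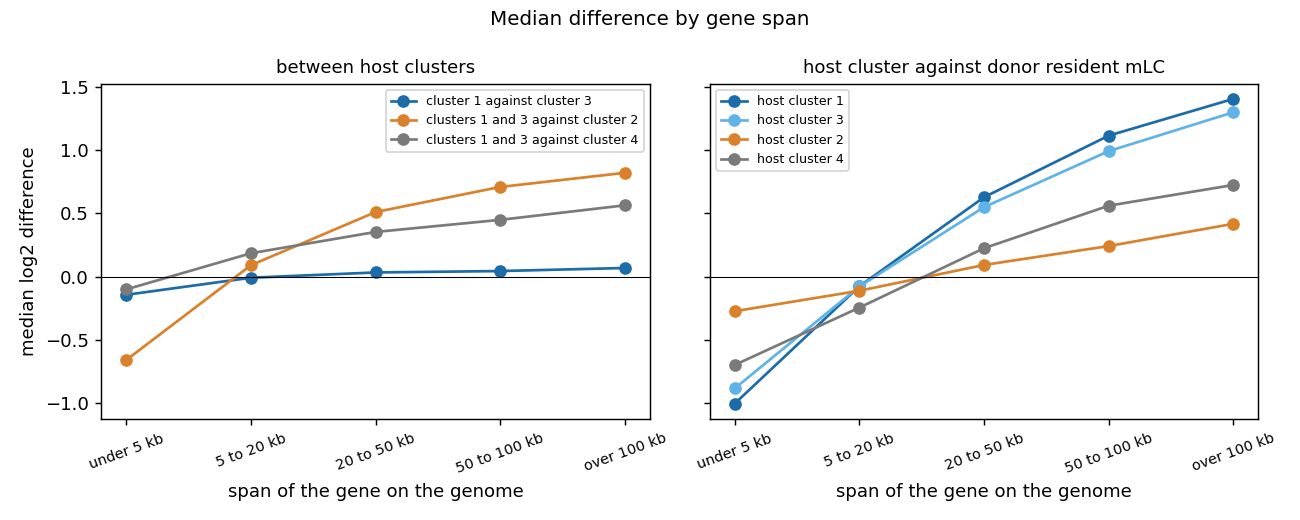
The median log2 difference of genes in 5 classes of span is drawn for the 3 comparisons between host clusters (left) and for each host cluster against the donor resident mLC (right). Against cluster 2 it runs from -0.66 under 5 kb to 0.82 over 100 kb, and against the donor cells clusters 1 and 3 run from -1.003 and -0.88 to 1.40 and 1.30.

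Levels within clusters 1 and 3 were also compared between cells of different mitochondrial share. In cells of cluster 1 with up to 10%, 10% to 20% and over 20% mitochondrial UMIs, Cd74 was at 15.99, 17.7 and 19.9, Cacna1e at 29.2, 29.5 and 27.7 and Malat1 at 550, 559 and 472, and ribosomal protein genes took 0.510%, 0.613% and 0.713%. In cluster 3 Cd74 was at 31.4, 33.1 and 37.9, Cacna1e at 21.5, 23.9 and 24.3 and Malat1 at 656, 529 and 442, a decline over the bands, and the ribosomal share was 1.49%, 1.46% and 1.92%. The gap between clusters 1 and 3 in Cd74 and in the ribosomal share was therefore present in each band. Mfge8 was higher in cluster 1 at higher shares, at 5.27, 8.74 and 10.7.

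Cluster 2 varied more. There Cd74 was at 319, 170 and 114 and Cacna1e at 4.54, 11.7 and 11.1 over the same bands, so that its cells over 20% lay nearer to clusters 1 and 3 and still above them in Cd74. Ciita was at 4.82, 9.34 and 8.21 in cluster 2 and at 5.69, 9.14 and 5.98 in cluster 4. In cluster 1 it was at 11.4, 12.1 and 9.01 and in cluster 3 at 14.9, 11.3 and 12.6. Clusters 1 and 3 were thus above cluster 2 in Ciita in each band, by less in the bands over 10%. In cells with over 5000 UMIs, Cd74 was at 15.8 in cluster 1, 31.0 in cluster 3 and 282 in cluster 2, and the ribosomal share was 0.576%, 1.36% and 9.23%. The shallow cells, up to 2000 UMIs, differed from the rest of their cluster: Malat1 was at 218 in the 54 such cells of cluster 1 and 204 in the 17 of cluster 3, where Cd74 was at 85.6 and the ribosomal share 4.48%.

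**Figure D5:**
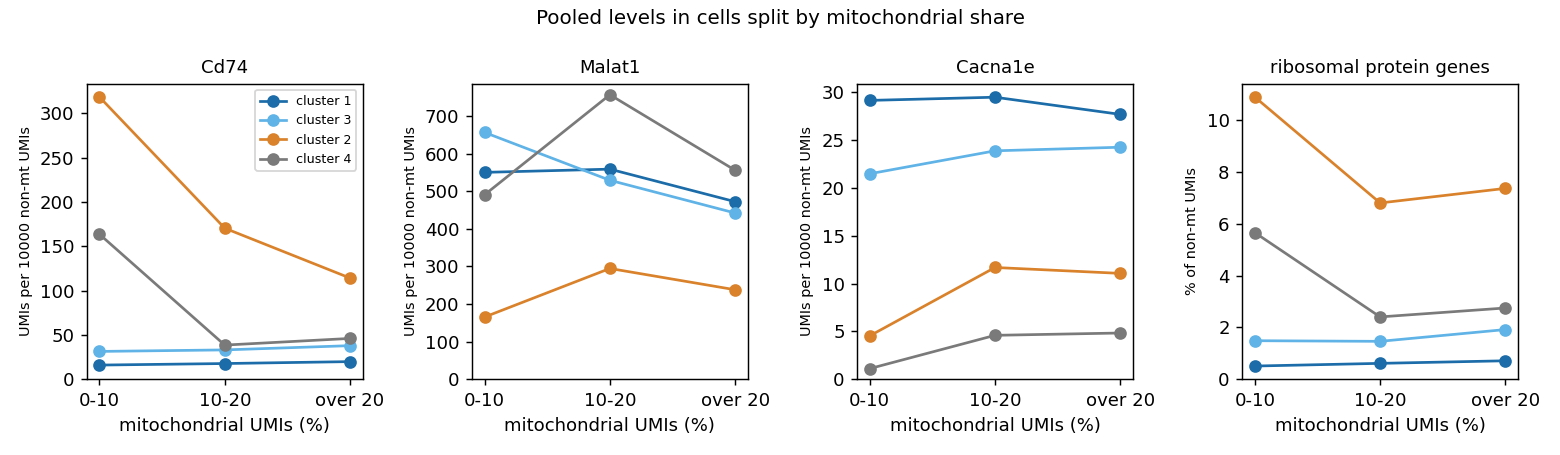
Pooled levels of Cd74, Malat1 and Cacna1e (UMIs per 10000 non-mitochondrial UMIs) and the share of ribosomal protein genes (percent of non-mitochondrial UMIs) are drawn for the cells of each cluster with up to 10%, 10% to 20% and over 20% mitochondrial UMIs. Cd74 in clusters 1 and 3 stays between 15.99 and 37.9 in every band, while cluster 2 goes from 319 to 114.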

How the data were processed

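Cells of CD11b+MHCII+ host and donor origin were profiled with the 10x 5' kit. Per the labels and the study's methods, the authors pseudoaligned reads with kallisto and bustools (GRCm38) and analysed them in Seurat, whose clusters were deposited. The deposited expression values are the natural log of 1 plus UMIs per 10000, and the deposited mitochondrial share is a percent. Doublets were removed by the authors with DoubletFinder according to the methods, and none were called here. From the values, whole UMIs were recovered for 100% of 1755429 host values (tolerance 0.001), and the 37 mitochondrial genes were left out of the denominator. UMIs were summed per cluster in Python 3.11.15 with NumPy 2.4.6, SciPy 1.17.1 and pandas 2.3.3. The calculation was tested on simulated data. Ratio intervals are conditional exact binomial intervals at 95%; UMIs of 1 library cover counting error only. Genes were named from fixed lists and by rank, the 12 furthest each way between clusters 1 and 3 and the 8 furthest each way against clusters 2 and 4, unnamed loci left out. The cells and gene lists were chosen with earlier results of these data known. Alternatives covered scaling, thinning to 1000 UMIs, cell filters, the minimum count and the pseudocount. Keratinocyte tables were not used.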

Additional observations from a re-analysis of the deposited data

Results flagged for a closer look

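The sorted host library also held cells outside clusters 1 to 4 that were not part of the comparisons between clusters 1 to 4 and served above only as a background for marker levels. In host cluster 5 the keratin genes Krt14 and Krt5 were at 213.0 and 138.0 UMIs per 10000 non-mitochondrial UMIs. In host cluster 6 the T cell receptor complex gene Cd3e was at 42.8 and the cytotoxic granule gene Nkg7 at 28.6, and its leading genes included Trdc, Cd3g and Xcl1. No group of the design holds the 4 to 10 samples needed to look for an outlying library.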

How the results depend on the processing

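No paired analysis was possible because there is 1 host library and no test. Counts of genes at least 2-fold apart are given here as higher and lower in the first-named cells. Between clusters 1 and 3 (12 and 101), averaging over cells gave 36 and 177, a minimum of 20 UMIs 40 higher, no minimum 63 and 175, a pseudocount of 1 gave 0 and 19, one of 0.01 gave 39 higher, and thinning to 1000 UMIs 45 lower. Against cluster 2 (2104 and 1082), median-of-ratios scaling gave 254 and 1641, averaging over cells 3368 higher, thinning 482 and 204, and a pseudocount of 1 gave 110 and 383. Against cluster 4 (1276 and 827), median-of-ratios scaling gave 610 higher, thinning 383 and 181, and a pseudocount of 1 gave 158 and 308. Thinned cells left fewer genes to test, 1196 between clusters 1 and 3, 1565 against cluster 2 and 1530 against cluster 4. The main settings tested 6481, 8262 and 7887, so the thinned counts are not on the same base. In cells with at most 10% mitochondrial UMIs, chosen after seeing the data, fewer genes were tested, with 60 and 33 between clusters 1 and 3, 922 higher against cluster 2, and 608 and 502 against cluster 4. Cells with more than 2000 UMIs, also chosen after seeing the data, left each count within 1.5 times. With at least 1000 UMIs, cluster 3 held 23.7% of host cells, clusters 1 and 3 61.0% and cluster 2 14.3%; with the study's filter cluster 2 held 12.9%. The mitochondrial share of cluster 2 was 14.8% in cells with at least 500 genes and 10.3% over pooled UMIs. Of 1386 recomputed differences of named genes, 915 moved by less than counting error, 467 moved further without changing sign, and 4 changed sign: H2-Oa (0.38) and Ccl22 (1.34) against cluster 2 after thinning, and Xaf1 (1.89) and Tm7sf2 (-0.18) between clusters 1 and 3 in cells with at most 10% mitochondrial UMIs. The causes were not tested. Depth limits genes under 50 UMIs, and no replicate limits every value to this library.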

Other observations

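Several immediate early genes had their highest levels in clusters 1 and 3. Fos was at 6.85 and 7.36 UMIs per 10000 non-mitochondrial UMIs in clusters 1 and 3, 3.85 in cluster 2 and 0.780 in cluster 4, and Btg2, an antiproliferative factor, at 10.86, 10.98, 5.85 and 1.71. Of 11 tested, 6 were at least 2-fold higher than in cluster 4, where 16.2% of all genes were and where 3 of the 11 had fewer than 50 UMIs. Against cluster 2, 2 of 11 (Fosb and Egr1) were higher, no more than the 25.5% of all genes. Among p53 and stress genes, Mdm2, which degrades p53, was at 1.46 in both clusters against 0.523 in cluster 2 and 0.856 in cluster 4, and Trp53inp1 at 1.75 and 1.32 against 0.721 and 0.970. The cell cycle inhibitor Cdkn1a was at 1.82 and 3.58 in clusters 1 and 3, 2.86 in cluster 2 and 7.30 in cluster 4. Of 8 such genes tested against cluster 2, 2 were higher and 0 lower, and of 7 against cluster 4, 1 was lower, shares near those of all genes (25.5% higher than in cluster 2 and 10.5% lower than in cluster 4).

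The 14 interferon-gamma genes summed to 2.01 in clusters 1 and 3, 3.11 in cluster 2 and 7.38 in cluster 4, with Gbp4 at 0.199 and 0.319 against 1.31 in cluster 4 and Irf1 at 0.136 and 0.273 against 1.20. Of the 7 that passed the minimum against cluster 4, 5 had fewer than 50 UMIs in clusters 1 and 3, and neither of the other 2 was past 2-fold. The 11 interferon-stimulated genes summed to 2.65 in clusters 1 and 3, 2.90 in cluster 2 and 5.53 in cluster 4, and Bst2 had 10 UMIs in clusters 1 and 3 and 40 in cluster 2. The 10 cell cycle genes summed to 4.32, 17.9 and 7.57 in the same order, with Mki67 at 0.951, 0.637, 1.03 and 0.437 in clusters 1, 3, 2 and 4. Of 5 TGF-beta genes 1, Tgfbr1, was higher than in cluster 2 (1.68 and 1.33 against 0.622), no more than the share of all genes, and 0 were past 2-fold against cluster 4. Of the 2 AHR targets tested, Ahrr, the receptor's repressor, was at 0.763 and 0.880 against 0.255 in cluster 2, and Tiparp was within 2-fold of it. Between clusters 1 and 3, none of the tested genes of the p53 (7), interferon-stimulated (2), interferon-gamma (2), TGF-beta (5), AHR target (2) or migration and maturation (6) lists was past 2-fold. Against cluster 2, 4 of the 8 migration and maturation genes that passed the minimum were lower in clusters 1 and 3 (Ccl22, Cd83, Cd40 and Nr4a3). However, 2 of these 4, Ccl22 among them, had fewer than 50 UMIs in clusters 1 and 3. Of the 6 with at least 50 there, 2 were lower, beside 13.1% of all genes.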
